A study of Mus musculus with 16 samples.

Results

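Xenobiotic receptors and efflux pumps were followed in sorted intestinal stem cells (ISCs) of mice after vertical sleeve gastrectomy (VSG), which removes most of the stomach, or after sham surgery. The group holds 8 genes taken by symbol from the 48440 genes listed in each table, namely the receptors Nr1i2, Nr1i3 and Ahr, the reductase Por, and the pumps Abcb1a, Abcc2, Abcc3 and Abcg2. All 8 were found in each of the 3 segments and all passed the filter of a mean normalized count above 10. They were selected on their function and on the duodenal values of Abcc2, whose fall after VSG was already known, so that those values are given as a description and support nothing here.

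The mice were females of the Lgr5eGFP strain, in which green fluorescent protein is driven from the stem cell gene Lgr5, and their age is not in the labels. All of them, VSG and sham, carried this allele, had been on a 60% high-fat diet for 16 weeks before surgery, and were killed 4 weeks after surgery, 15 minutes after a liquid meal that ended an overnight fast. GFP+ cells from 6 cm of duodenum, jejunum and ileum were sorted after removal of CD45+, CD31+, annexin V+ and Sytox Blue+ cells, and poly(A) RNA was sequenced. From 7 mice came 16 libraries, 4 VSG and 2 sham in duodenum and in jejunum (the same 6 mice), and 2 of each surgery in ileum. Libraries of 1 surgery with the same replicate number come from 1 mouse, while a VSG and a sham replicate that share a number are separate animals.

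The pregnane X receptor (PXR, gene Nr1i2) and the constitutive androstane receptor (CAR, gene Nr1i3) are nuclear receptors that sense drugs, steroids and bile acids and bind DNA together with the retinoid X receptor. The aryl hydrocarbon receptor (AHR, gene Ahr) senses planar aromatic compounds, including products of the diet and of gut bacteria, and binds DNA together with ARNT. Target genes of these receptors encode cytochrome P450 enzymes, which draw their electrons from the reductase POR, conjugating enzymes, and pumps that push drugs and conjugates out of the cell. P-glycoprotein (Abcb1a), MRP2 (Abcc2) and BCRP (Abcg2) face the gut lumen in the epithelium, and MRP3 (Abcc3) faces the blood.

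Promoter sequence is shown for members that lay low together after VSG (Nr1i3, Abcc2) and for one that did not (Abcg2). The RefSeq promoter table (GRCm38.p6) held 8 promoters of 6 members, and none of Ahr or Abcc3. The 250 bases before each start were searched on both strands for AGGTCA and AGTTCA, half-sites that nuclear receptors can bind, and for GCGTG, the core that AHR with ARNT can bind. Capitals below mark matches, and no match overlapped another.
Nr1i3 promoter, chr1:171213720-171213969, plus strand: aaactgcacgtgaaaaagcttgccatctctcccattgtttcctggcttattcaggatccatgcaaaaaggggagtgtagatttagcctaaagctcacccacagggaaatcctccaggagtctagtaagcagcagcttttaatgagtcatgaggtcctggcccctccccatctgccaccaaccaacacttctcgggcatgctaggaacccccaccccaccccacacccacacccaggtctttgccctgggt
Abcc2 promoter, chr19:43782058-43782191, plus strand: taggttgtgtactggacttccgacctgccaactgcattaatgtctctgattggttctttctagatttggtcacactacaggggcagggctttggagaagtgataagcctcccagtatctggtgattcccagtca
Abcc2 around the match, chr19:43782247-43782276, plus strand: tgtcaggatgaaAGGTCAggagacttgcct
Abcg2 promoter, chr6:58584283-58584522, plus strand: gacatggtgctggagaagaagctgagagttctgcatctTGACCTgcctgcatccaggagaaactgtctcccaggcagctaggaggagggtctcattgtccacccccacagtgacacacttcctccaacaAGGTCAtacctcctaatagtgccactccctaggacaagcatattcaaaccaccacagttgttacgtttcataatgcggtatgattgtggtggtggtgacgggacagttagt
The Nr1i3 stretch held none of the 3 motifs, nor did that of Nr1i2. The Abcc2 match to AGGTCA lies 49 bases before the RefSeq start and inside the first exon that GENCODE M21 draws, which begins 116 bases earlier, so the longer Abcc2 stretch stops before that exon. The first of 3 Abcg2 promoters held AGGTCA 121 bases before the start and, on the opposite strand, 212 bases before it. Among 32851 promoters in the table, 14% held AGGTCA, 11.8% held AGTTCA and 28.2% held GCGTG in the same window. The RefSeq start lay at -92986 bases from the GENCODE start for Abcb1a, upstream of the gene, and at 19112 bases inside the gene for Por, and these promoters are not shown.

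Several libraries stood apart. By the value of 1 read, which was estimated from the smallest steps between values, the duodenal libraries held 33.7 to 63.6 M reads, the jejunal 22.2 to 57.8 M and the ileal 10.9 to 36.4 M. Fabp6, an ileal bile acid binding protein gene, had 196951 normalized counts in jejunal VSG replicate 1 and 15.8 to 313 in the other 5 jejunal libraries. Lgr5 was listed at 0 in sham replicate 1 of the jejunum and of the ileum. These libraries go against their labels in these genes, and whether libraries were exchanged or mixed was not tested. Jejunal sham replicate 1 also had the highest sum of 12 enterocyte markers of its segment, at 2.47e+06 normalized counts against 608042 to 1.09e+06 in the other 5. The 12 enterocyte markers made up 0.818% to 2.44% of all duodenal normalized counts, although the cells were sorted as Lgr5+, and 1.77% to 5.25% and 2.03% to 3.68% of jejunal and ileal ones. Ptprc, which encodes CD45, counted 87.0 to 1534 in the duodenum after VSG and 22 and 28.1 after sham surgery, and the T cell marker Cd3e was at 0 in every duodenal and ileal library. Each segment was normalized separately, so levels are set side by side across segments without a test. In sorted but bulk RNA, fewer cells of a type and less RNA per cell cannot be told apart.

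**Figure D1:**
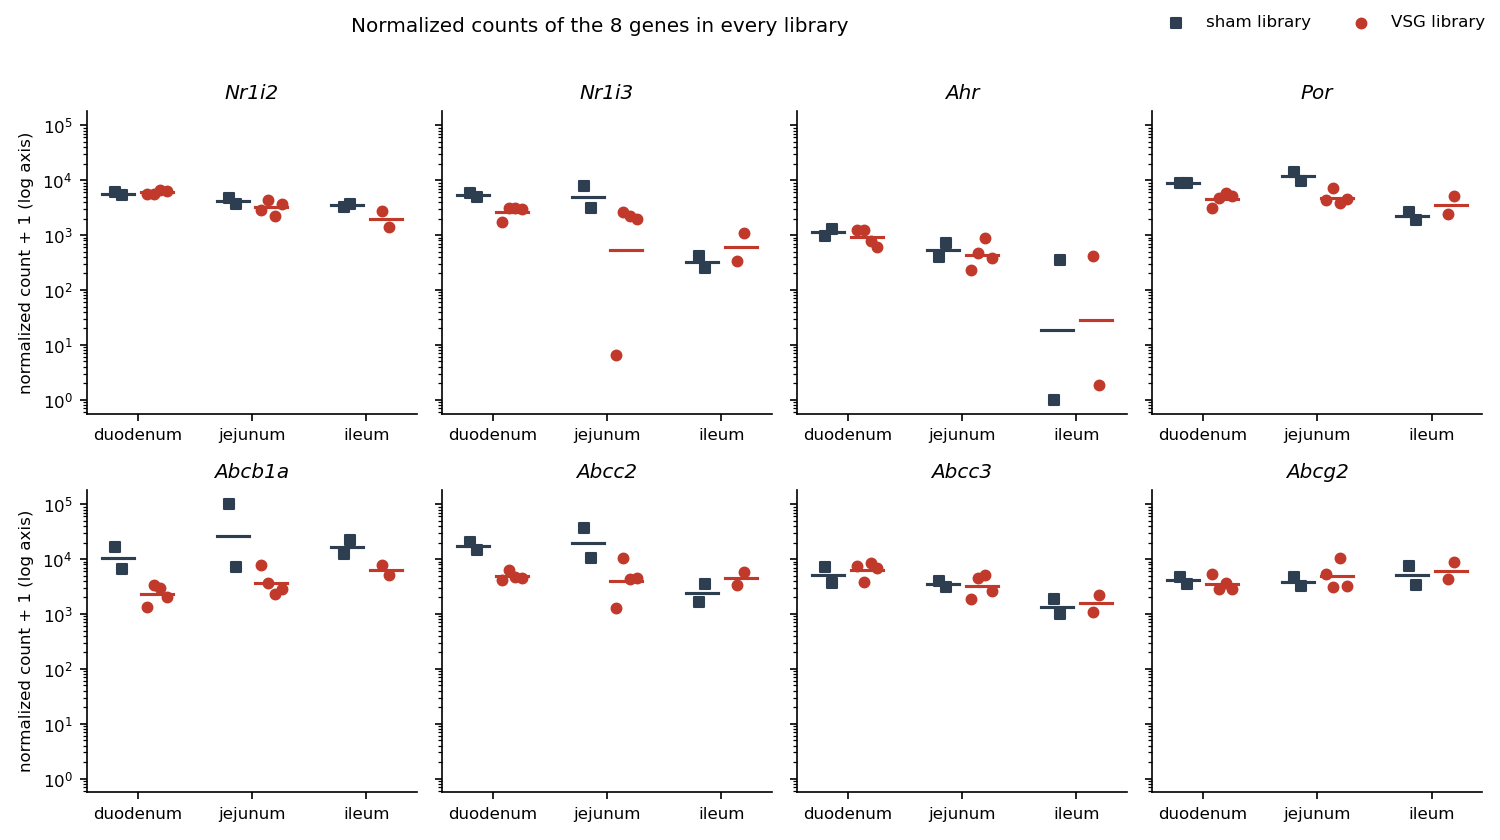
Normalized count + 1 on a log axis of each of the 8 genes in every library, with sham libraries as squares, VSG libraries as circles and the mean of the log values as a bar. In the duodenum the VSG circles of Nr1i3, Por, Abcb1a and Abcc2 all lie below both sham squares, while those of the other 4 genes overlap them.

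Of the receptors, Nr1i3 lay lower after VSG in every duodenal library, and the groups of Nr1i2 and Ahr overlapped. Nr1i2 (ENSMUSG00000022809, chromosome 16, 38248323 to 38294824, minus strand) had normalized counts of 5548, 5493, 6714 and 6329 after VSG (replicates 1 to 4, the order kept in all later lists of values) and of 5986 and 5274 after sham surgery (replicates 1 and 2). These values overlapped, and no library lay far from the rest. Its log2 fold change (log2FC, VSG over sham, on log2 of the normalized count + 1, with its standard error, SE) was 0.09 (SE 0.21, limma adjusted p = 0.936). Nr1i3 (ENSMUSG00000005677, chromosome 1, 171213970 to 171220701, plus strand) had 1707, 3056, 3153 and 2973 after VSG and 5927 and 4929 after sham surgery. No VSG library reached the lower sham library, with means of 2722 ± 681 (SD, n = 4) and 5428 ± 705 (SD, n = 2). The log2FC of Nr1i3 was -1.03 (SE 0.31, limma adjusted p = 0.534), which did not pass the threshold. Ahr (ENSMUSG00000019256, chromosome 12, 35497974 to 35535038, minus strand) had 1262, 1222, 777 and 615 after VSG and 969 and 1294 after sham surgery. The VSG libraries fell on either side of the lower sham library, and the log2FC was -0.27 (SE 0.43, limma adjusted p = 0.912).

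In the jejunum, Nr1i2 had 2856, 4324, 2243 and 3731 normalized counts after VSG and 4662 and 3754 after sham surgery, with 1 VSG library between the sham libraries. Its log2FC was -0.39 (SE 0.36, limma adjusted p = 0.80). Nr1i3 had 5.57, 2668, 2219.7 and 2003 after VSG and 7938 and 3174 after sham surgery. The VSG libraries again all lay below the sham libraries, and VSG replicate 1, with the value of about 3.69 reads, was the library with high Fabp6. That library set the size of the difference, since the log2FC of -3.25 (SE 2.06, limma adjusted p = 0.760) was -1.14 without it and -0.48 without it and sham replicate 1. Ahr had 227, 474, 879 and 383 after VSG and 396 and 712 after sham surgery, with the highest and the lowest library both from VSG. The log2FC of jejunal Ahr was -0.28 (SE 0.76, limma adjusted p = 0.919).

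In the ileum, Nr1i2 had 2765 and 1399.9 normalized counts in VSG replicates 4 and 5 and 3249 and 3698 in the sham replicates, a log2FC of -0.82 (SE 0.54, limma adjusted p = 0.736). Both VSG libraries lay below both sham libraries. Nr1i3 had 332 and 1070.0 after VSG and 423 and 248 after sham surgery, so that VSG replicate 4 lay between the sham libraries. Its log2FC was 0.88 (SE 1.09, limma adjusted p = 0.760). Ahr had 419.5 and 0.848 after VSG and 0 and 356 after sham surgery, with 1 library of each group at or under the value of 3 reads, so no fold change is given for it.

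Por (ENSMUSG00000005514, chromosome 5, 135670033 to 135735326, plus strand), the electron donor of the P450 enzymes, had 3082, 4684, 5836 and 5092 normalized counts after VSG in the duodenum and 8853 and 8789 after sham surgery. All VSG libraries lay below the sham libraries, at 4674 ± 1163 (SD, n = 4) against 8821 ± 45.8 (SD, n = 2), a log2FC of -0.95 (SE 0.28, limma adjusted p = 0.522). Jejunal Por had 4268, 7176, 3875 and 4452 after VSG and 14153 and 9696 after sham surgery. The groups did not overlap there either, and the log2FC was -1.29 (SE 0.35, limma adjusted p = 0.760). Without sham replicate 1 it was -1.02 (limma adjusted p = 0.949). Without sham replicate 2 it was -1.56 (limma adjusted p = 0.124), but the sham group was then replicate 1 alone, the library without Lgr5 counts, and 16.7% of all genes were called. In the ileum the order was different, with 2465 and 5045 after VSG and 2656 and 1867 after sham surgery, and the groups overlapped. The ileal log2FC of Por was 0.66 (SE 0.56, limma adjusted p = 0.736).

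Abcb1a (ENSMUSG00000040584, chromosome 5, 8660077 to 8748575, plus strand) had 1353, 3317, 2956 and 2012 normalized counts after VSG in the duodenum and 16657 and 6721 after sham surgery. The lower sham library exceeded all 4 VSG libraries, and the sham libraries themselves were far apart. The log2FC was -2.22 (SE 0.44, limma adjusted p = 0.333). In the jejunum Abcb1a had 7823, 3641, 2267 and 2824 after VSG and 101474 and 7117 after sham surgery. Sham replicate 1, the library without Lgr5 counts, was far above all others, and VSG replicate 1 lay above sham replicate 2. The jejunal log2FC of -2.87 (SE 0.87, limma adjusted p = 0.760) was -0.95 without sham replicate 1 and -4.79 without sham replicate 2 (limma adjusted p = 0.949 and 0.0512). In the second fit that outlying library was the whole sham group, and 16.7% of all genes were called. In the ileum Abcb1a had 7703 and 5180.3 after VSG and 12596 and 21893 after sham surgery. Both VSG libraries lay below the sham libraries, with a log2FC of -1.39 (SE 0.43, limma adjusted p = 0.736). The 3 ileal enterocyte markers lay lower in the same libraries, with sums of 35212 and 83018 after VSG and 162166 and 228303 after sham surgery, and their part was not tested. Abcb1a thus had a log2FC below 0 in all 3 segments. Its reads can be split with its paralog Abcb1b, which had 0 to 58.5 normalized counts in the duodenal libraries and 716 in jejunal VSG replicate 3, the jejunal library with the least Abcb1a, against 0 to 8.70 in the other 5.

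Abcc2 (ENSMUSG00000025194, chromosome 19, 43782192 to 43840740, plus strand), the pump for glutathione and glucuronide conjugates and bilirubin, fell in the duodenum. It had 4093, 6334, 4793 and 4459 normalized counts after VSG and 20885 and 14779 after sham surgery. No VSG library came near the sham libraries, and the means of 4919.7 ± 985 (SD, n = 4) and 17832 ± 4317 (SD, n = 2) gave a log2FC of -1.86 (SE 0.25). Its call rested on single libraries, since the limma adjusted p was 0.435 without VSG replicate 2, 0.631 without VSG replicate 3 and 0.669 without VSG replicate 4, with log2FC between -1.98 and -1.82. In the jejunum of the same mice Abcc2 had 1272, 10346, 4372 and 4492 after VSG and 36825 and 10614 after sham surgery. VSG replicate 2 lay just under sham replicate 2, and the log2FC was -2.30 (SE 0.74, limma adjusted p = 0.760), or -1.40 without sham replicate 1. It was -0.85 without sham replicate 1 and VSG replicate 1. In the ileum Abcc2 had 3373 and 5843 after VSG and 1685 and 3556 after sham surgery. The groups overlapped there, with a log2FC of 0.86 (SE 0.58, limma adjusted p = 0.736).

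Abcc3 and Abcg2 were not separated by surgery in any segment. Abcc3 (ENSMUSG00000020865, chromosome 11, 94343295 to 94392997, minus strand), the pump on the blood side, counted 7569, 3807, 8625 and 6920.3 after VSG and 7046 and 3674 after sham surgery in the duodenum. Both groups had libraries near the lowest value, and the log2FC was 0.34 (SE 0.37, limma adjusted p = 0.908). It was -0.12 (SE 0.44, limma adjusted p = 0.942) in the jejunum, where the VSG libraries ran from 1887 to 5096 and the sham libraries had 4000.4 and 3109.7. In the ileum the values of Abcc3 were 1102 and 2200.2 after VSG and 1876 and 984 after sham surgery, a log2FC of 0.20 (SE 0.69, limma adjusted p = 0.961). Abcg2 (ENSMUSG00000029802, chromosome 6, 58584523 to 58695676, plus strand), a pump of sulfate conjugates and many drugs, had 5282, 2799, 3718 and 2897 after VSG and 4653 and 3569.5 after sham surgery in the duodenum. The sham values lay inside the VSG range, and the log2FC was -0.20 (SE 0.31, limma adjusted p = 0.912). Jejunal Abcg2 had 5387, 3058, 10525 and 3284 after VSG and 4729 and 3217 after sham surgery, with VSG replicate 3 far above the rest and a log2FC of 0.32 (SE 0.50, limma adjusted p = 0.850). Ileal Abcg2 had 4297 and 8776 after VSG and 7619 and 3365 after sham surgery, a log2FC of 0.28 (SE 0.59, limma adjusted p = 0.895).

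Counted over the group, 1 of 8 members was called in the duodenum, Abcc2, where 0.0237% of 16867 genes were called, and 4 members had an unadjusted limma p under 0.05 and lay lower after VSG, as did 3.48% of genes. A call took an unadjusted p under 0.05 and an adjusted p under 0.2 from limma, a log2FC beyond 0.5 in either direction and a mean normalized count above 50. In the jejunum 0 of 8 members were called, with 0.0126% of 15857 genes called, and 3 members (Por, Abcb1a and Abcc2) had an unadjusted limma p under 0.05 and lay lower, as did 2.4% of genes. In the ileum 0 of 8 members and 0% of 13853 genes were called, and 1 member, Abcb1a, had an unadjusted limma p under 0.05, as did 455 genes in all, or 3.28%, and 1.19% of genes in its direction. The VSG libraries of 4 members (Nr1i3, Por, Abcb1a and Abcc2) all lay below the sham libraries in the duodenum, where this held for 8.01% of genes. It held for 3 members (Nr1i3, Por and Abcc2) in the jejunum, against 6.21% of genes there, and for 2 members (Nr1i2 and Abcb1a) in the ileum, against 11.6% of genes. No member had all VSG libraries above the sham libraries in any segment, against 6.44% of duodenal, 6.59% of jejunal and 17% of ileal genes. A log2FC below 0 was seen for 6 of 8 duodenal members (49.3% of genes), 7 of 8 jejunal members (45% of genes) and 2 of 8 ileal members (43% of genes). Without Abcc2, whose duodenal values entered the choice, 0 of the other 7 members were called, and 3 duodenal, 2 jejunal and 2 ileal ones had all VSG libraries below the sham libraries. Their median log2FC was -0.27, -0.39 and 0.28 in the 3 segments. The median log2FC over the 8 members was -0.61 in duodenum, -0.84 in jejunum and 0.42 in ileum, beside 0.01, 0.11 and 0.24 over all genes tested.

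**Figure D2:**
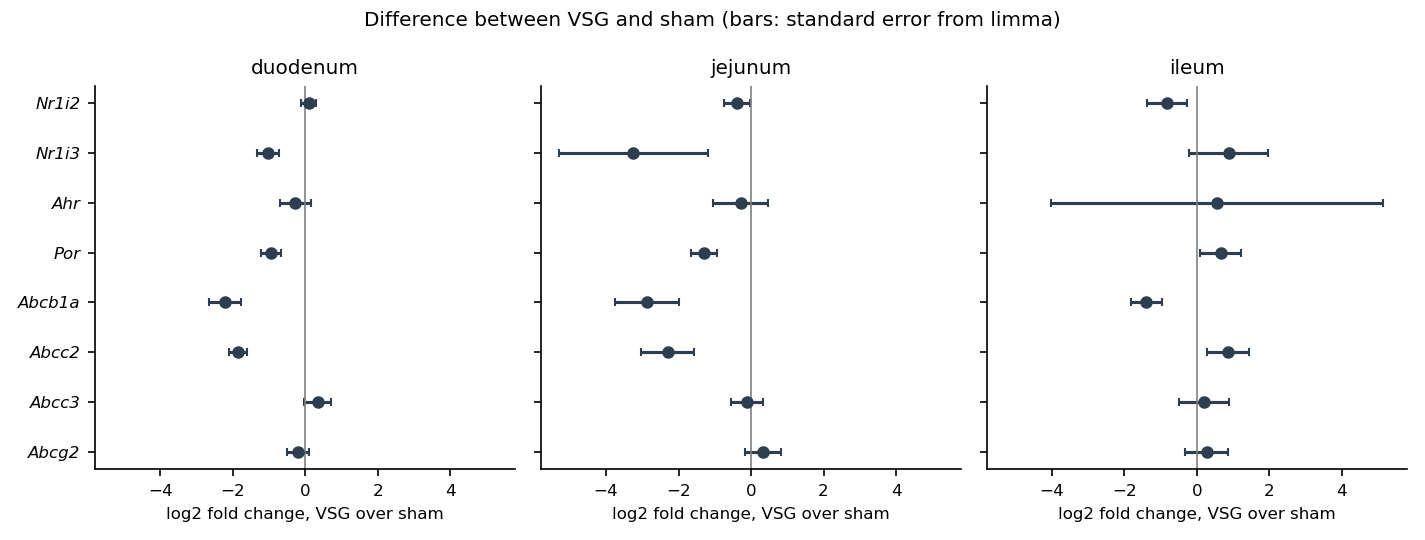
log2FC of VSG over sham for each gene and segment, on log2(normalized count + 1), with bars of 1 standard error from limma. Por, Abcc2 and Nr1i3 lie left of 0 in the duodenum and the jejunum and right of 0 in the ileum, while Abcb1a lies left of 0 in all 3 segments, and ileal Ahr has 1 library of each group at or under 3 reads.

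Whether the difference between surgeries itself differed between duodenum and jejunum was tested by subtracting the duodenal from the jejunal log2 value in each mouse and comparing the surgeries over 14718 genes. An adjusted p under 0.2 was found for 0 of the 8 members and 0% of all genes, and an unadjusted limma p under 0.05 for 0 members and 4.1% of all genes. The difference was -0.45 (SE 0.65) for Abcc2, a description since its duodenal values entered the choice. It was -0.65 (SE 0.90, limma adjusted p = 0.979) for Abcb1a. For Nr1i3 it was -2.22 (SE 2.02, limma adjusted p = 0.963), with VSG replicate 1 at -8.02 and the other 3 VSG mice between -0.57 and -0.20. The errors of these 3 genes leave room for a difference as large as their duodenal log2FC. The ileum shares too few mice with the other segments for the same test.

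Levels are compared between genes only per kilobase of exon. In the duodenum, mean normalized counts per kilobase ran from 2307 for Nr1i2 through 1506 for Por, 1101 for Abcc3, 1081 for Abcc2, 1004 for Abcb1a, 821 for Nr1i3 and 469 for Abcg2 to 166 for Ahr. Neighbours in this order overlapped in their libraries, except Ahr, whose highest library at 209.9 lay below the lowest of Abcg2 at 343. In the jejunum Abcb1a came first at 3806 per kilobase, but sham replicate 1 carried that rank, at 18517 per kilobase. Without it Abcb1a stood at 864, below Por at 1466 and Nr1i2 at 1325, and Ahr was again last at 83.0. The ileum also had Abcb1a first, at 2161 per kilobase, and Nr1i2 second at 1088. Nr1i3 stood at 117 and Ahr at 31.5 per kilobase there, and their libraries overlapped. Set side by side without a test, mean normalized counts over all libraries of a segment were 3624, 3001 and 518 for Nr1i3 in duodenum, jejunum and ileum, 6274, 3521 and 1541 for Abcc3, and 3819.7, 5033 and 6014 for Abcg2.

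Whether pumps follow the receptors over libraries was examined in the 6 duodenal and, apart from them, the 6 jejunal libraries, which come from the same mice. Each of 3 receptors was set against each of 4 pumps, 24 relations in all, on log2(normalized count + 1), with exact permutation tests of the pairings, two-sided, over 720 arrangements. An adjusted p under 0.05 was found for 0 of the 24 relations by Pearson's r (lowest 0.0667) and for 0 by Spearman's rho (lowest 0.133), and an unadjusted exact permutation p under 0.05 for 4 by each, 3 of them relations of Nr1i3, whose surgery groups did not overlap. Relations with duodenal Abcc2, whose values entered the choice of the group, count among the 24 but are a description. That with Nr1i3 is among the 4 by each measure. For Nr1i2 and Abcc2 in the duodenum, r was -0.33 and rho -0.31, with r of 0.35 without the 2 libraries farthest from the Nr1i2 median. In the jejunum their r was 0.72 (exact permutation p = 0.104, adjusted p = 0.313) and rho 0.89 (exact permutation p = 0.0333, adjusted p = 0.20), with r of 0.84 without the 2 farthest libraries. Nr1i2 and Abcb1a had r of -0.11 in the duodenum (exact permutation p = 0.824, adjusted p = 0.898) and 0.55 in the jejunum (exact permutation p = 0.268, adjusted p = 0.643), with rho of -0.31 (exact permutation p = 0.564, adjusted p = 0.816) and 0.60 (exact permutation p = 0.242, adjusted p = 0.725). Without the 2 farthest libraries these r were 0.48 and 0.73.

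Nr1i2 and duodenal Abcc3 had r of 0.77 (exact permutation p = 0.0861, adjusted p = 0.295) and rho of 0.77 (exact permutation p = 0.103, adjusted p = 0.411), with r of 0.71 without the 2 farthest libraries and 0.74 after centring on each surgery. In the jejunum their r was 0.037 (exact permutation p = 0.933, adjusted p = 0.933) and rho 0.086 (exact permutation p = 0.919, adjusted p = 1). Nr1i2 and jejunal Abcg2 ran opposite, with r of -0.81 (exact permutation p = 0.0431, adjusted p = 0.258) and rho of -0.66 (exact permutation p = 0.175, adjusted p = 0.60). This relation rests on 2 libraries, since r was 0.68 without the 2 farthest from the Nr1i2 median. Ahr and Abcc3 had r of 0.75 in the jejunum (exact permutation p = 0.0847, adjusted p = 0.295) and rho of 0.83 (exact permutation p = 0.0583, adjusted p = 0.280), with r of -0.04 without the 2 farthest libraries, so it too rests on those. In the duodenum the same pair had r of -0.59 (exact permutation p = 0.229, adjusted p = 0.611) and rho of -0.43 (exact permutation p = 0.419, adjusted p = 0.816), with r of -0.50 without the 2 farthest. Ahr with Abcb1a, Abcc2 or Abcg2 had r between -0.31 and 0.34 in both segments.

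The surgery groups did not overlap in Nr1i3 in either segment, so its r with the pumps is given mainly after centring. Centred on the mean of each surgery group, Nr1i3 had r of 0.80 with duodenal Abcb1a (exact permutation within surgeries, 48 arrangements, p = 0.0417, adjusted p = 0.333). With duodenal Abcc2, whose values entered the choice, the centred r was 0.62, as a description. It was -0.70 with duodenal Abcg2 (exact permutation p = 0.229, adjusted p = 0.611) and -0.07 with duodenal Abcc3 (exact permutation p = 0.875). The centred r in the jejunum was 0.84 with Abcc2 and 0.79 with Abcc3 (exact permutation p = 0.0417 each, adjusted p = 0.333 each). It was -0.29 with Abcb1a (exact permutation p = 0.354, adjusted p = 0.654) and -0.08 with Abcg2 (exact permutation p = 0.9375). Without the 2 libraries farthest from the Nr1i3 median, uncentred jejunal r was 0.059 with Abcc3, 0.92 with Abcc2, 0.90 with Abcb1a and -0.38 with Abcg2. Uncentred values still hold the difference between surgeries. With 48 arrangements, no single relation among the 24 could reach an adjusted p under 0.05 after centring. These p-values thus cannot decide whether pumps follow Nr1i3. VSG replicate 1 was lowest in Nr1i3 and in Abcc2 in both segments and in jejunal Abcc3, and jejunal Abcb1a was not low in it. In the ileum, with 4 libraries and no test, Nr1i3 was 332, 1070.0, 423 and 248 and Abcc2 was 3373, 5843, 1685 and 3556 in VSG replicates 4 and 5 and sham replicates 1 and 2. The library with the most Nr1i3 also had the most Abcc2 there, and the 2 sham libraries were in opposite order.

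**Figure D3:**
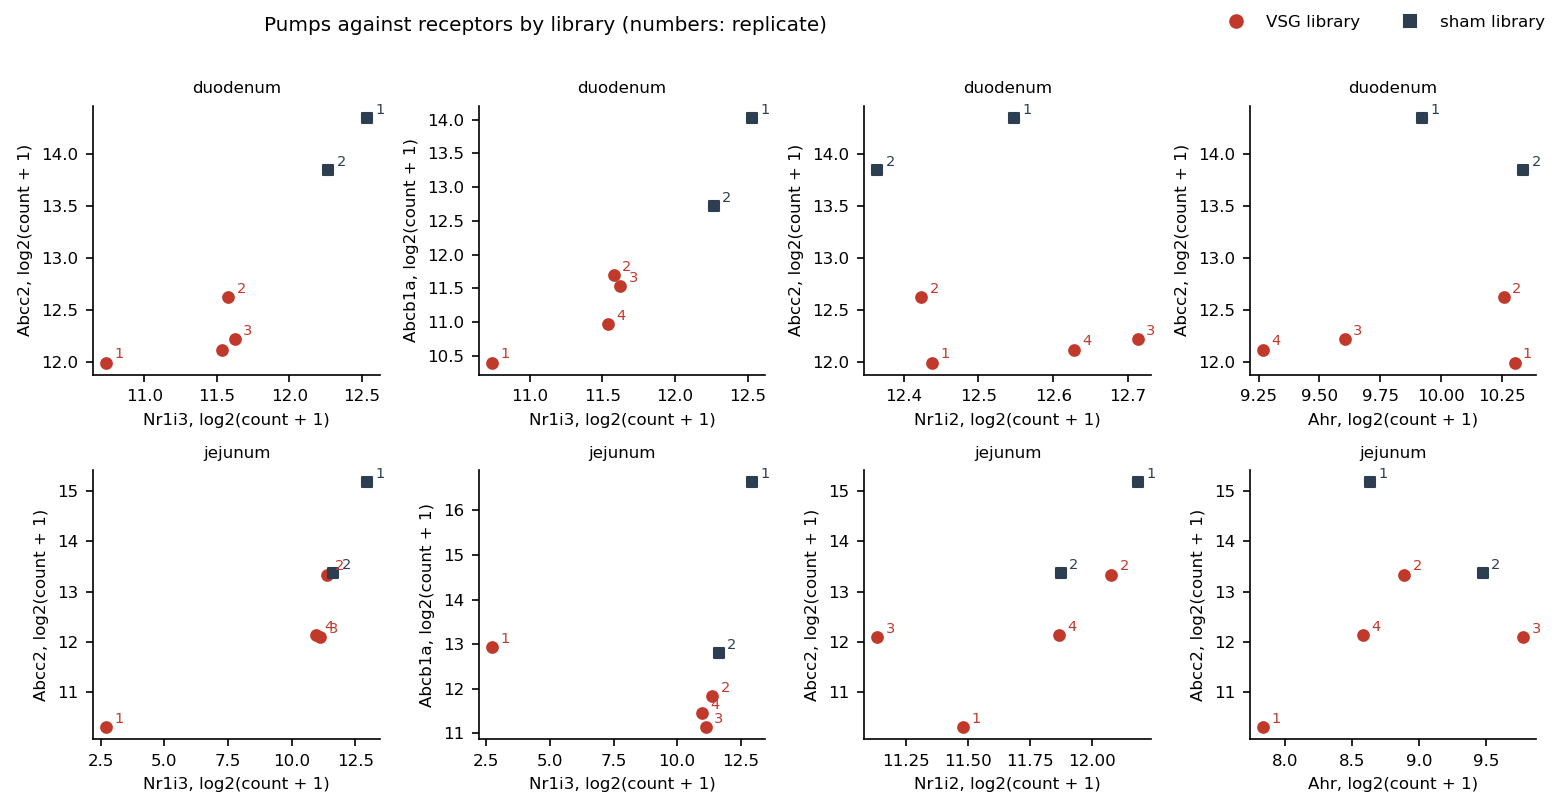
Each point is 1 library, VSG as circles and sham as squares with the replicate number, and both axes are log2(normalized count + 1) of a receptor (across) and a pump (up) in the duodenum (top) and the jejunum (bottom). Both duodenal sham points lie above and to the right of the VSG points in the panels of Nr1i3, jejunal VSG replicate 1 stands far to the left in Nr1i3, and duodenal Nr1i2 and Ahr spread without order against Abcc2.

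The genes whose pattern over the 12 duodenal and jejunal libraries was most like each member were sought among 12336 genes on values centred per segment, as a description. Nr1i3 was closest to Cd36 (r = 0.99), a fatty acid uptake gene, Ugt2a3 (r = 0.99), a glucuronosyltransferase gene, and Efr3b (r = 0.99). Abcc2 was closest to Ms4a10 (r = 0.97), Ephx2 (r = 0.97), the soluble epoxide hydrolase gene, and Ehhadh (r = 0.97), of peroxisomal fatty acid oxidation. Por was closest to Phospho1 (r = 0.96), Slc27a4 (r = 0.96), a fatty acid transport protein gene, and Scp2 (r = 0.95). Abcb1a was closest to Rcan1 (r = 0.97), Sord (r = 0.96) and Ctns (r = 0.95). The nearest genes of the other 4 members were less close, with r of 0.93 for Gprin3 with Nr1i2, 0.94 for Pnpt1 with Ahr, 0.92 for Crtc3 with Abcc3 and 0.93 for Pip5k1c with Abcg2. The 12 libraries share 6 mice and the same outlying libraries. Among the members themselves, and with both surgeries pooled, r was 0.88 for Por with Abcc2, 0.83 for Por with Abcb1a and 0.72 for Abcb1a with Abcc2, and it was -0.69 for Nr1i2 with Abcg2.

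Enzymes known as targets of PXR and CAR lay lower after VSG in the duodenum and the jejunum, without a call, and were mixed in the ileum. This list, like the other gene lists, was chosen with earlier results of these data known, so its counts are a description. Of 10 such enzymes, 0 were called in any segment. All 10 had a log2FC below 0 in the duodenum, 6 of them with an unadjusted limma p under 0.05 (3.48% of all genes, lower after VSG), and 7 had all VSG libraries below the sham libraries (8.01% of all genes). In the jejunum again all 10 lay below 0, with 7 at an unadjusted limma p under 0.05 (2.4% of all genes) and 8 not overlapping (6.21% of all genes). The median log2FC was -1.39 in the duodenum and -1.50 in the jejunum. In the ileum 3 lay below 0 (43% of all genes) and 7 above, with a median of 0.59 beside 0.24 over all genes tested. Of those above, Cyp2b10 was at 0 in both ileal sham libraries and Gstm1 in sham replicate 2, so their fold changes rest on the floor. Below 0, so do jejunal Cyp2b10 and duodenal Cyp2c55 (0 in VSG replicate 1) and ileal Cyp2c55 (0 in VSG replicate 5 and sham replicate 1). The jejunal enzyme sum was 22465 to 43944 normalized counts after VSG and 70813 in sham replicate 2. It was 142248 in sham replicate 1, the library without Lgr5 counts. Gsta1, a glutathione transferase gene, had 4092, 4351, 10864 and 5517 normalized counts after VSG and 22399 and 28389.9 after sham surgery in the duodenum, a log2FC of -2.14 (SE 0.37, limma adjusted p = 0.292). Its jejunal log2FC was -2.98 (SE 0.46, limma adjusted p = 0.35), with 1248 to 3726 after VSG and 22425 and 12503 after sham surgery. Ugt1a1, the bilirubin glucuronosyltransferase gene, had 8883 to 13253 after VSG and 23494 and 19893 after sham surgery in the duodenum (log2FC -0.94, SE 0.23, limma adjusted p = 0.451). In the ileum Ugt1a1 had 5279 and 8246 after VSG and 3069 and 2930.2 after sham surgery (log2FC 1.14, SE 0.43, limma adjusted p = 0.736). Cyp3a13, a P450 gene, overlapped between surgeries in every segment, with log2FC values of -0.64, -1.30 and -0.25 in duodenum, jejunum and ileum. Reads of Gsta1, of the Cyp3a genes and of the Ugt1a genes can be split with close relatives or shared exons, and these values are uncertain to that extent.

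Few AHR targets were measurable. Of 7 AHR target genes, 3 could be tested (Tiparp, Nqo1 and Ugt1a6a) and 0 were called, while the classical targets Cyp1a1 and Aldh3a1 were listed at 0 in all 16 libraries. Tiparp, an ADP-ribosyltransferase gene, had 1358, 3007, 2432 and 1784 normalized counts after VSG and 1316 and 927 after sham surgery in the duodenum. All its VSG libraries there lay above the sham libraries (log2FC 0.89, SE 0.38, limma adjusted p = 0.770). Nqo1, a quinone reductase gene, had 955 to 1390.3 after VSG and 1639 and 1571 after sham surgery in the duodenum (log2FC -0.53, SE 0.33, limma adjusted p = 0.880). Ugt1a6a, a glucuronosyltransferase gene that shares exons with Ugt1a1, overlapped between surgeries in every segment. Among 11 receptor partners and cofactors 0 were called, and the median log2FC values were -0.02, -0.27 and 0.02 in duodenum, jejunum and ileum. Rxrb, which encodes a retinoid X receptor and was named after its values were seen, had 2817 to 3689 normalized counts after VSG and 2239.7 and 2231 after sham surgery in the duodenum, all VSG libraries above the sham libraries (log2FC 0.53, SE 0.24, limma adjusted p = 0.810). Hnf4a, a nuclear receptor gene of the gut epithelium and liver, had log2FC values of 0.34, 0.37 and -0.13, with overlapping groups in each segment. Hsp90ab1, which encodes an AHR chaperone, had log2FC values of 0.11, 1.01 and 0.60 in duodenum, jejunum and ileum. Jejunal sham replicate 1 had its lowest jejunal value, 19091. Ncor1, a corepressor gene, had -0.14, 0.24 and -0.93. In the ileum the VSG libraries of Hsp90ab1 all lay above the sham libraries, as for 17% of genes. Those of Ncor1 all lay below, as for 11.6% of genes.

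Of 7 other exporters, listed with earlier results of these data known, 0 were called. In the duodenum 6 of 7 had a log2FC below 0 (49.3% of all genes) with a median of -0.58. In the jejunum it was 4 of 7 (45% of all genes) with a median of -0.96. In the ileum it was 2 of the 6 tested (43% of all genes) with a median of 1.73. Ileal Abcc4 was at 0 in 3 libraries and Abcc5 in 1, so the ileal median rests partly on values at the floor. Slc47a1, the gene of the cation exporter MATE1, had 578, 744, 789 and 649 normalized counts after VSG and 2038 and 1497 after sham surgery in the duodenum, with no overlap (log2FC -1.35, SE 0.37, limma adjusted p = 0.485). In the jejunum it had 277 to 937 after VSG and 4824 and 1247 after sham surgery (log2FC -2.14, SE 0.68, limma adjusted p = 0.760). Abcc6 overlapped between surgeries in the duodenum (log2FC -0.58, SE 0.53, limma adjusted p = 0.880) and lay lower after VSG in all jejunal libraries (log2FC -1.25, SE 0.56, limma adjusted p = 0.760). Abcc10 had log2FC values of -0.07, -0.96 and 0.96 in duodenum, jejunum and ileum.

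**Figure D4:**
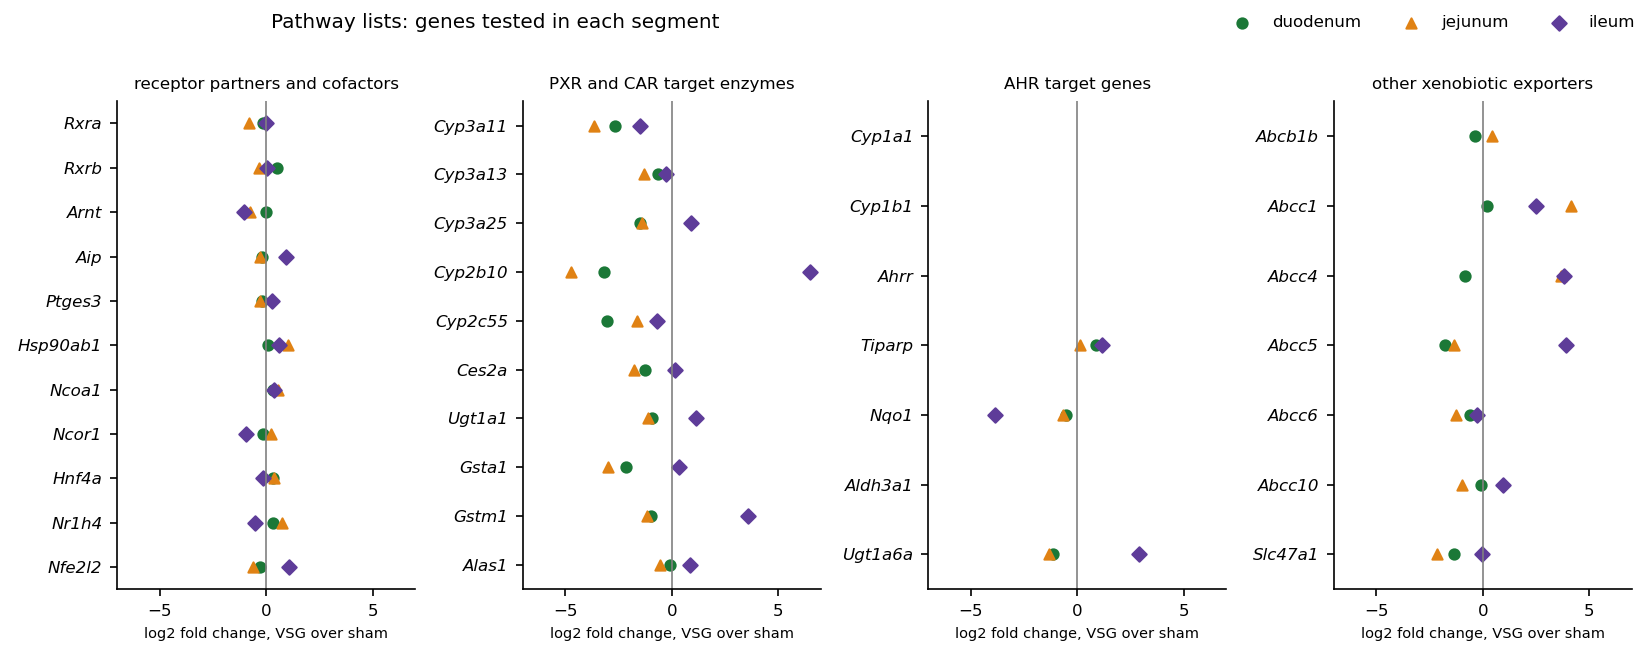
log2FC of VSG over sham for each gene of 4 pathway lists, with duodenum as circles, jejunum as triangles and ileum as diamonds, and genes without a point not tested. All 10 PXR and CAR target enzymes lie left of 0 in the duodenum and the jejunum, 7 of them lie right of 0 in the ileum, and receptor partners lie on both sides of 0 in the duodenum.

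Markers of enterocytes lay lower after VSG in the duodenum and the jejunum, without a call. All 12 enterocyte markers had a log2FC below 0 in the duodenum (median -0.88) and in the jejunum (median -1.19), with 0 called, and 7 (against 8.01% of genes) and 4 (against 6.21% of genes) of them had all VSG libraries below the sham libraries. In the ileum 5 lay below 0 and 7 above, while all 3 markers of ileal enterocytes lay lower after VSG in both libraries (median log2FC -1.87). The sum of the 12 enterocyte markers was 388428 to 777241 normalized counts after VSG and 850058 and 1.26e+06 after sham surgery in the duodenum. In the jejunum the sums overlapped, at 608042 to 1.09e+06 after VSG and 2.47e+06 and 936782 after sham surgery. The highest was that of sham replicate 1, the library without Lgr5 counts. The surgeries did not overlap in the duodenal sum, so r with the log2 sum is given after centring on each surgery, as a description. Over the 6 duodenal libraries it was 0.94 for Abcb1a, 0.87 for Nr1i3, 0.78 for Por, 0.74 for Abcc2, 0.62 for Nr1i2, 0.15 for Abcc3, -0.32 for Abcg2 and -0.39 for Ahr. Over the 6 jejunal libraries it was 0.89 for Por, 0.78 for Abcc2, 0.73 for Abcb1a, 0.70 for Nr1i2, 0.36 for Abcc3, 0.33 for Nr1i3, -0.18 for Abcg2 and -0.33 for Ahr. The enterocyte list was also chosen with earlier results of these data known, and it does not hold any of the 8 members. All 5 tuft cell markers lay above 0 in the duodenum (median log2FC 1.39), where their sum was 15305 to 32539 after VSG and 4829 and 12374 after sham surgery, and their part in the members' values was not tested. The 7 stem cell markers had a median log2FC of 0.12 in the duodenum and 1.07 in the jejunum.

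Each library was then divided by its enterocyte marker sum, a step chosen after the values were seen. The median of all genes then lay at 0.86, 1.10 and 0.69 in duodenum, jejunum and ileum, so values are relative to that sum and not to the mean gene. In the duodenum Nr1i3 had a log2FC of -0.16 and Por of -0.09, and the groups of both overlapped. Abcc2 had -0.99 and Abcb1a -1.35, and their VSG libraries still all lay below the sham libraries. For Abcc2 this was 6.17 to 10.5 normalized counts per 1000 of the sum after VSG and 16.5 and 17.4 after sham surgery, and for Abcb1a 3.48 to 4.98 and 7.91 and 13.2. Nr1i2, Abcc3 and Abcg2 lay above the sham libraries on this scale, with log2FC values of 0.96, 1.21 and 0.67, the last below the median of all genes. Of all duodenal genes, 31.4% did not overlap on this scale, and 1.61% of all genes were lower without overlap. In the jejunum Abcc2 alone of the 8 still did not overlap, at 2.00 to 9.46 per 1000 after VSG and 11.3 and 14.9 after sham surgery, a log2FC of -1.27. Jejunal Por had -0.26 and overlapped, while 17.9% of all jejunal genes did not overlap. In the ileum the log2FC of Abcb1a on this scale was -0.94, with overlapping groups. Nr1i3, Por, Abcc2, Abcc3 and Abcg2 all lay above the ileal sham libraries, where 29.3% of all genes did not overlap and 4.96% were lower without overlap.

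**Figure D5:**
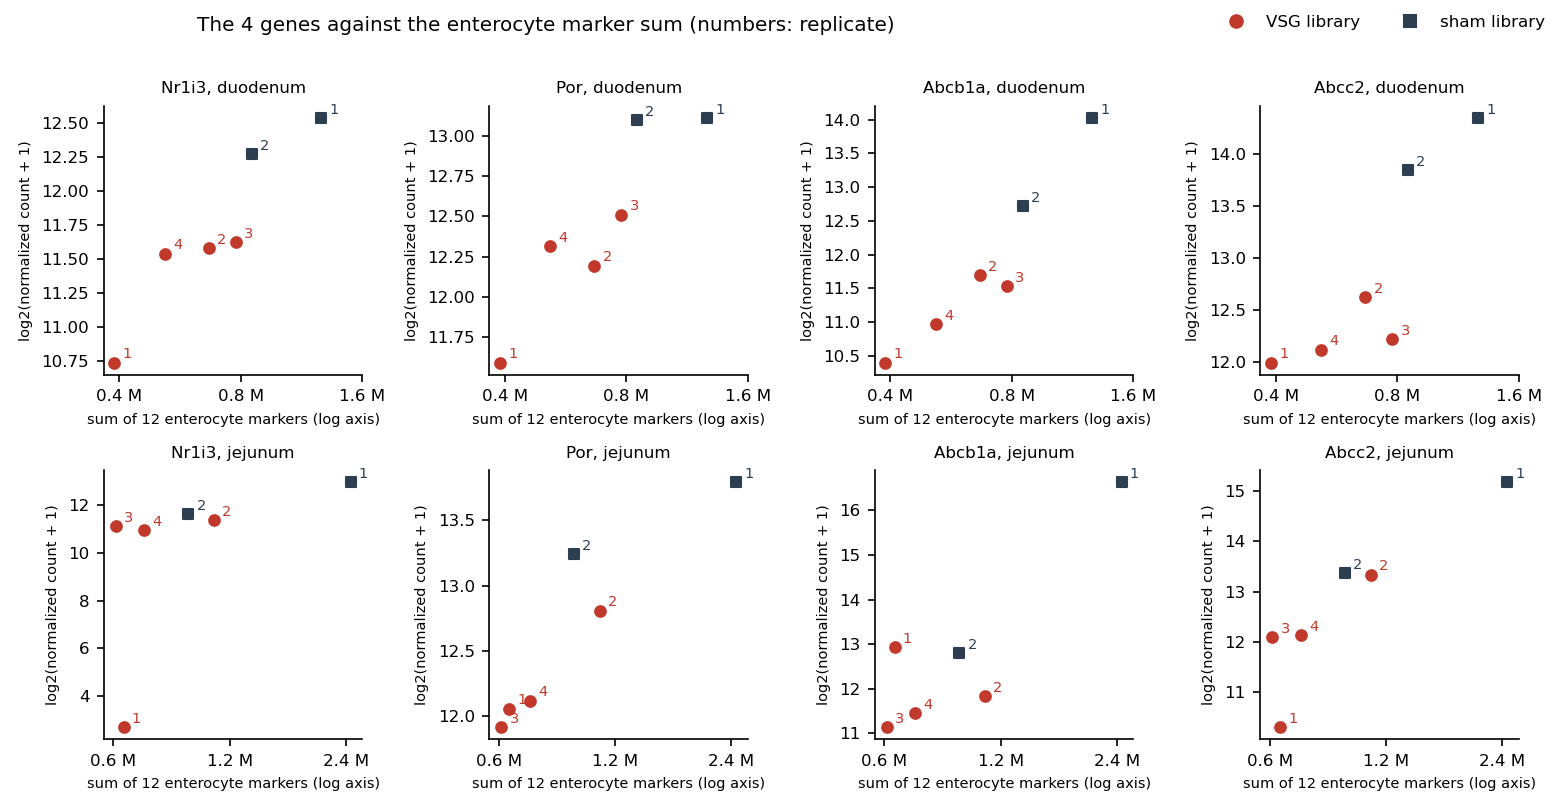
Each point is 1 library, VSG as circles and sham as squares with the replicate number, with the summed normalized counts of 12 enterocyte markers on a log axis (across) and log2(normalized count + 1) of a gene (up) in the duodenum (top) and the jejunum (bottom). In the duodenum both sham points lie above and to the right of all VSG points for each of the 4 genes, and jejunal VSG replicate 1 lies far below the others in Nr1i3.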

How the data were processed

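GFP+ cells of duodenum, jejunum and ileum were profiled by RNA-Seq in 16 libraries, grouped by the labels' surgery. The authors deposited normalized counts (a signal, not whole counts), made per segment with STAR 2.5.3a (mm10), Salmon 0.6.0 and DESeq2. Deposited log2 fold changes, standard errors and p-values of the authors' own comparisons were not used. Libraries with low mapping were left out by the authors and are not used here.

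Each segment was fitted alone with limma 3.58.1 (R 4.3.3, trend) on log2(normalized count + 1), for genes with a mean above 10. A gene was called at p under 0.05, adjusted p (Benjamini-Hochberg) under 0.2, absolute log2 fold change above 0.5 and mean above 50. Receptors and pumps were related with exact permutation tests (Python 3.11.15, scipy 1.17.1), in 24 relations adjusted together. In single-gene permutation tests the smallest p is 0.0667 with 6 libraries and 0.333 with 4, so no such p is given. Exon lengths and coordinates are from GENCODE M21, on mm10. The fit was tested on simulated data.

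Low values did not step by whole reads in enough genes for a count test (whole in all libraries, within 0.01 of a read, for 40.2%, 39.2% and 46.9% of genes). By the steps that remained, 1 read was worth 0.586 to 2.07 normalized counts. Replicates are separate mice.

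The 8 members and all gene lists were chosen with earlier results of these data known. Named genes are the members, the 3 genes most like each, and the 3 most abundant tested genes of each pathway list, plus library checks chosen after their values were seen. The same rules held for the alternatives, which changed the pseudocount, filter, scaling, trend, threshold, replicate block and libraries. The lists of proliferation, Paneth, enteroendocrine, stroma, liver and pancreas markers are given by their sums and counts among the other observations.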

Additional observations from a re-analysis of the deposited data

Results flagged for a closer look

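Nr1i3 in the duodenum after VSG was marked because 1 library lay far from the rest. VSG replicate 1 had 1707 normalized counts and the other 3 VSG libraries had 2973 to 3153, so that the gap to the nearest library was 0.875 of the whole range of the group. This was 1 of 16 groups of 4 libraries examined (8 genes in 2 segments), and chance marks about 1 group in 20. Without this library the duodenal log2 fold change of Nr1i3 was -0.82.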

How the results depend on the processing

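The duodenal values of Abcc2 entered the choice of the group, so its alternatives are given as a description. Its log2 fold change was below 0 in all 15 of them (-2.11 to -0.99). Among the alternatives that kept both sham libraries, Abcc2 passed the threshold with a pseudocount of 10, with quantile normalization and without VSG replicate 1. Limma adjusted p ran from 0.123 to 0.801 over the alternatives that kept both sham libraries, and the cause of these changes was not tested. The count of 4 duodenal genes called became 0 with a pseudocount of 0.5, no filter, a filter at 50, scaling to the same total, or an adjusted p under 0.05, 10 with a pseudocount of 10 and 43 without trend, which shared 4 and 2 genes with it. The count of 2 jejunal genes became 61 without trend, 1 at an adjusted p under 0.05, and 42 without VSG replicate 1 and sham replicate 1, a step added after the data were seen. The 0 ileal genes became 3 with a pseudocount of 10 and 463 without trend, and the 0 genes of the jejunal minus duodenal difference became 10 without trend. Leaving out 1 library gave 0 to 213 duodenal genes (highest without sham replicate 1), 0 to 2653 jejunal (without sham replicate 2, which leaves the library without Lgr5 counts as the whole sham group), 0 to 731 ileal (without VSG replicate 5) and 0 to 784 for the difference (without sham replicate 2). Members whose groups do not overlap numbered 4 to 7 (duodenum), 3 to 5 (jejunum) and 3 to 7 (ileum) with 1 library left out, where 19.6% to 39.2%, 17.4% to 51.1% and 53.5% to 61.0% of all genes did not overlap, so that the ileal counts say nothing of the members. They numbered 5 (duodenum, 2 of them lower), 1 (jejunum) and 5 (ileum) after division by the enterocyte marker sum, against 31.4%, 17.9% and 29.3% of all genes. Scaling to the same total, which moved the median of all jejunal genes by 0.22, gave 3 of 24 receptor and pump relations an adjusted exact permutation p under 0.05 (0.0333 each). These were Nr1i2 with Abcg2 in the jejunum and 2 relations of Nr1i3 with Abcc2, 1 in each of these segments. The surgery groups of Nr1i3 do not overlap, and the duodenal relation is a description, since duodenal Abcc2 entered the choice. After centring, the adjusted exact permutation p of the jejunal relation was 0.333. With 48 arrangements, no single relation could reach 0.05, so this value does not decide it.

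Log2 fold changes that changed sign were those of members without a call. After division by the enterocyte marker sum, duodenal Ahr was 0.59 and Abcg2 0.67, and jejunal Nr1i2 was 0.64, Ahr 0.75 and Abcc3 0.91. Jejunal Abcc3 was 0.11 with scaling to the same total and 0.32 without VSG replicate 1 and sham replicate 1. With 1 library left out, duodenal Abcc3 ran from -0.13 to 0.81, jejunal Abcc3 from -0.34 to 0.14, Ahr from -0.71 to 0.14 and Abcg2 from -0.044 to 0.60, and ileal Ahr from -3.68 to 4.80, Abcc3 from -0.30 to 0.70 and Abcg2 from -0.31 to 0.87.

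With the replicate block, 0 duodenal and 0 jejunal genes were called, duodenal Abcc2 had a log2 fold change of -1.79 (limma adjusted p = 0.801), and duodenal Nr1i2 was -0.025 and Ahr 0.15. Deviations of VSG and sham libraries with the same number had r of -0.0489 and -0.0263 in the duodenum and 0.0543 and 0.00995 in the jejunum, so that they share only a number. The surgeries could not be paired in any segment, since VSG and sham libraries come from separate mice. In the ileum the groups share no number, so no block was fitted there. Values of Ahr in the ileum and of jejunal Nr1i3 in VSG replicate 1 rest on few reads.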

Other observations

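Markers of other cells are given by their log2 fold changes, with 0 called in any segment, beside medians over all genes of 0.01, 0.11 and 0.24 in duodenum, jejunum and ileum. All 6 goblet cell markers had a log2 fold change above 0 in the duodenum (median 0.55) and in the jejunum (median 1.18), and the 5 tuft cell markers had a jejunal median of 2.97. The jejunal tuft sums overlapped, at 6758 to 20419 after VSG and 1335 and 11319 after sham surgery. Sham replicate 1, the library without Lgr5 counts, had the lowest jejunal sum of goblet, Paneth, tuft and proliferation markers. Proliferation markers had medians of 0.06, 0.71 and 0.21, Paneth cell markers of 0.10, 0.76 and 2.06, and enteroendocrine markers of 0.11, 0.11 and 0.34 in duodenum, jejunum and ileum. In the duodenum the sum of 6 stroma and endothelium markers was 41.6 to 106 normalized counts after VSG and 228 and 2094 after sham surgery, and the sum of 6 liver and pancreas markers was 773 to 3210 after VSG and 842 and 1448 after sham surgery. The 7 immune markers summed to 231 to 1780 normalized counts after VSG and to 112 and 132 after sham surgery there.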
